A study of Mus musculus with 13 samples.

Results

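The 20 semaphorins, 9 plexins and 2 neuropilins of the mouse were examined as 1 guidance system in libraries of 5 groups, labelled as retinal ganglion cells (RGCs). All 31 genes were matched by Ensembl ID among the 52550 genes of the count table, whatever their level, and no measured value entered the rule. The AAV2-Cre group (2 libraries, UTX knockout) and the AAV2-GFP group (3 libraries, labelled as the WT control) came from adult retina after optic nerve crush, at postnatal day 42 per the labels, with cells sorted 3 days after the crush. UTX is another name of Kdm6a, a demethylase of histone H3. Per the study's methods, both viruses were injected into the vitreous of female Kdm6a f/f mice, which carry loxP sites around exon 3 of Kdm6a, so the control mice bore the floxed alleles too. The P1 (3 libraries), P14 (3 libraries) and P21 (2 libraries) groups came from uninjured WT retina at postnatal days 1, 14 and 21, labelled as developmental controls. All 13 libraries were bulk RNA-seq of Thy1.2-positive cells. The virus, not a cell-type promoter named in the sources used here, set which cells received Cre, and how many mice entered a library is not given in the sources used here. The study calls the libraries of a group biological replicates, without saying what separated them, so p-values measure the spread between these libraries only.

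Semaphorins are secreted or membrane-bound ligands that repel or attract growing axons. Plexins are the receptors that carry the signal into the cell, where they switch off Ras-family GTPases and act on the cytoskeleton. Neuropilins bind the secreted class 3 semaphorins and hold them to A-type plexins, while most membrane-bound semaphorins bind a plexin directly. In the retina and optic pathway this system sets where RGC axons cross or avoid the midline and in which layer of the inner retina neurites stay, and several of its members also guide blood vessels or act in immune cells.

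Libraries held 30357454 to 38812917 counts in development and 13637602 to 16070720 counts in the adult groups. The labelled cell type was checked with 14 RGC markers, which took 0.890% to 0.977% of counts at P1, 0.125% to 0.142% at P14 and 0.0377% to 0.0754% at P21, and 0.0386% to 0.0463% in AAV2-Cre against 0.0434% to 0.0498% in AAV2-GFP. Pou4f2, a defining RGC factor, was at 0 in both AAV2-Cre libraries. Thy1, the sorted antigen, was at 38.7 and 34.4 counts per 1000000 library counts (CPM) in AAV2-Cre and at 17.3 to 27.1 CPM in AAV2-GFP, and it was at 505 to 571 CPM at P1, 183 to 187 CPM at P14 and 70.0 to 92.2 CPM at P21. Markers of other retinal cells were present: 12 rod markers took 1.30% to 2.79% of counts in AAV2-Cre and 2.89% to 3.39% in AAV2-GFP, and 9 Müller glia markers took 0.198% to 0.530% at P1, 1.98% to 2.09% at P14 and 3.57% to 3.75% at P21. The 10 microglia and macrophage markers took 0.775% to 0.979% in AAV2-Cre and 0.579% to 0.904% in AAV2-GFP. The 8 bipolar cell markers took 0.0454% to 0.0642% at P1, 0.442% to 0.454% at P14 and 0.380% to 0.425% at P21. At P14 and P21, RGC markers took a smaller share than bipolar or Müller glia markers. In the adult groups they took a smaller share than rod, microglia and macrophage, Müller glia or bipolar cell markers. Müller glia markers took 0.396% to 0.577% in AAV2-Cre and 0.295% to 0.533% in AAV2-GFP. Bipolar cell markers took 0.132% to 0.176% in AAV2-Cre and 0.171% to 0.213% in AAV2-GFP. Such shares are not cell numbers. Kdm6a was counted over the whole gene at 111 and 113 CPM in AAV2-Cre and 102 to 123 CPM in AAV2-GFP, which does not measure loss of exon 3. The summed counts of 4 Y-linked genes were 1983 to 2768 at P1, 0 to 49 at P14 and 4999 to 5520 at P21, beside 32190 to 76943 counts of Xist, so the share of male cells also differed between ages and cannot be told apart from age. The summed counts were 0 in all adult libraries.

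Sequences before a RefSeq start are printed for genes with large changes between P1 and P14, as examples of members that moved apart. RefSeq (GRCm38.p6) gave a promoter entry for 26 of the 31 genes (not for Sema3b, Sema3f, Sema6a, Plxna1 and Plxna4). Among the called genes with a single entry whose start matched an annotated transcript, the 2 with the largest fall were Sema3a and Plxna3 and the 2 with the largest rise were Plxnd1 and Sema5b. Each line holds the 250 bases before the start of the RefSeq entry, read 5′ to 3′ on the gene's own strand, with CpG dinucleotides in capitals. The annotated Sema3a gene (GENCODE vM21) begins at 13125414, so the bases printed for it lie inside the gene, before a later start. The annotated Sema5b gene begins at 35541145, within its printed bases.
Sema3a, chr5:13396534-13396783, plus strand: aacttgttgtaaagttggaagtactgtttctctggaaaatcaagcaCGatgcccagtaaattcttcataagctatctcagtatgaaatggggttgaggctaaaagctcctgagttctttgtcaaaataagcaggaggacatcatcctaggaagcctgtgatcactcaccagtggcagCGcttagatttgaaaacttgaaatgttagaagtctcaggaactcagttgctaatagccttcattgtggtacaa
Plxna3, chrX:74328816-74329065, plus strand: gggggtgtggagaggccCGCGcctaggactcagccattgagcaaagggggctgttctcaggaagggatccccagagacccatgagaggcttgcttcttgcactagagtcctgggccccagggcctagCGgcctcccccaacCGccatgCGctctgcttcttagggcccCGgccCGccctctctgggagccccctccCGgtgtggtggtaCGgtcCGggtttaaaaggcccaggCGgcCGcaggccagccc
Plxnd1, chr6:115995006-115995255, minus strand: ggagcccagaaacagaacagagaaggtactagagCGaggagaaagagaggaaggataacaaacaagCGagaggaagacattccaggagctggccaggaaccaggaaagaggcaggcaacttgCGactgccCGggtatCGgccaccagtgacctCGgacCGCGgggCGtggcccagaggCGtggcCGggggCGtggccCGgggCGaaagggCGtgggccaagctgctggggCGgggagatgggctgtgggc
Sema5b, chr16:35541112-35541361, plus strand: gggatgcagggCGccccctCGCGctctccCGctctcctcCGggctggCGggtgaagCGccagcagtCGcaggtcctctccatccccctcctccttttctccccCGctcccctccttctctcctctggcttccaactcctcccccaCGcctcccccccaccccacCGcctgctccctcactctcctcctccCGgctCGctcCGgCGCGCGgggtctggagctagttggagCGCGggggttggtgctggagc
The Sema3a sequence held 2 CpG and the Plxna3 sequence 12, while the Plxnd1 sequence held 16 and the Sema5b sequence 19, against a median of 6 over all 32851 promoters. The letters GGGCGG, searched on both strands, were found in the Plxna3 and Plxnd1 sequences and in 32.7% of all promoters of this length. TATAAA on either strand was in none of these 4 sequences and in 12.4% of all promoters. Over the called members with 1 promoter entry, the median CpG number was 14.5 for the 10 that fell (2 to 32) and 16 for the 5 that rose (3 to 19). These ranges overlapped, so CpG number did not separate the members that fell from those that rose.

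The change between P1 and P14 ran through nearly the whole system, in both directions. Of the 31 genes, P14 libraries were higher than P1 libraries in 11 and lower in 17, by edgeR's quasi-likelihood test with a Benjamini-Hochberg adjusted p under 0.05, against 33.6% higher and 33.6% lower of the 20890 genes tested. With a log2 fold change beyond 1 as well, 7 were higher and 12 lower, against 19.7% and 15.2% of all genes. The median log2 fold change was -0.62 over the members and -0.01 over all genes. Both neuropilins and 3 of 4 A-type plexins were lower at P14, while no B-type plexin was. In bulk libraries, fewer cells of a type and less RNA per cell cannot be told apart, and 13 of the 14 RGC markers were also lower at P14 than at P1. Between P14 and P21 a smaller number moved, 9 higher and 9 lower, against 14.6% higher and 19.3% lower of all genes, and 2 and 3 of them with a log2 fold change beyond 1, against 2.70% and 9.21%. The median log2 fold change was then -0.07 over the members and 0.00 over all genes.

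**Figure D1:**
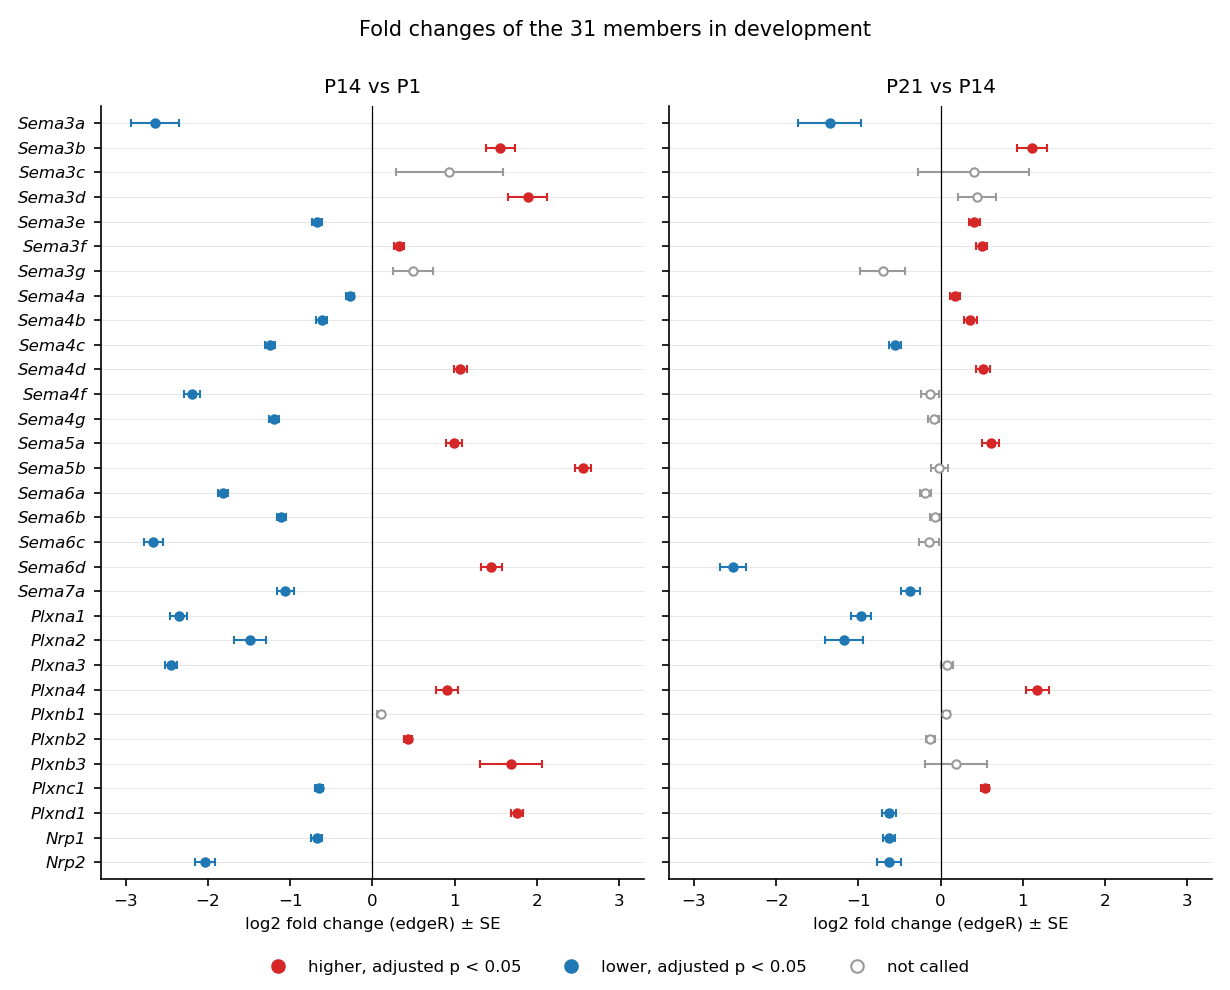
Log2 fold change with its standard error (x axis, edgeR) of each of the 31 genes (rows) for P14 against P1 (left) and P21 against P14 (right). Red points were higher and blue points lower at an adjusted p under 0.05, and open points were not called. The left panel holds 28 called genes and the right panel 18.

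Plxna1 and Plxna3, receptors that work with neuropilins for class 3 semaphorins, had the largest falls among the receptors for P14 against P1. Plxna1 (GRCm38 chromosome 6, 89316314 to 89362620, minus strand) was at 517, 509 and 545 CPM at P1, 96.6, 108 and 102 CPM at P14 and 60.7 and 43.9 CPM at P21. No 2 ages overlapped. Its log2 fold change was -2.36 ± 0.11 (SE) for P14 against P1 (edgeR, Benjamini-Hochberg adjusted p = 4.67e-08) and -0.97 ± 0.12 for P21 against P14 (adjusted p = 0.000271, edgeR). Plxna3 (chromosome X, 74329066 to 74344689, plus strand) was at 368, 359 and 387 CPM at P1, 65.4, 71.7 and 67.0 CPM at P14 and 77.5 and 66.3 CPM at P21. Its P14 libraries lay far below those of P1, and 1 P21 library was inside and 1 above the P14 range, with a log2 fold change of -2.45 ± 0.07 for P14 against P1 (edgeR adjusted p = 6.37e-09), the smallest adjusted p of any member, and no call from P14 to P21. Plxna2, a receptor of the class 6 ligand Sema6a, was at 119, 114 and 122 CPM at P1, 42.5, 48.6 and 35.8 CPM at P14 and 24.7 and 12.5 CPM at P21. It stepped down at both intervals, by 1.49 on the log2 scale for P14 against P1 (SE 0.20, edgeR adjusted p = 8.13e-05) and by 1.18 for P21 against P14 (SE 0.23, edgeR adjusted p = 0.00404). The second step of Plxna2 was -1.77 without P21 replicate 1 and -0.78 without P21 replicate 2.

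Plxna4 was the A-type plexin that ran the other way. This receptor of Sema3a and Sema6a was at 23.1, 21.4 and 15.0 CPM at P1, 37.3, 38.4 and 35.9 CPM at P14 and 85.5 and 82.5 CPM at P21. The 3 ages were fully separated and ascending, with log2 fold changes of 0.91 ± 0.13 (edgeR adjusted p = 0.000162) for P14 against P1 and 1.18 ± 0.14 (edgeR adjusted p = 0.000221) for P21 against P14. Plxnd1, the receptor of Sema3e and a guide of blood vessels, peaked in the middle, at 20.9, 23.4 and 23.9 CPM at P1, 79.3, 80.7 and 70.5 CPM at P14 and 50.8 and 48.4 CPM at P21. Its log2 fold changes were 1.76 ± 0.08 (edgeR adjusted p = 3.56e-08) and -0.63 ± 0.08 (edgeR adjusted p = 0.000391). The summed share of 9 pericyte and smooth muscle markers also peaked at P14, at 0.00938% to 0.0331% of counts at P1, 0.411% to 0.457% at P14 and 0.0597% to 0.0894% at P21, and all 9 were called higher and then lower. That of 9 endothelial markers was 0.00473% to 0.0120% at P1, 0.0579% to 0.0632% at P14 and 0.0790% to 0.0825% at P21. Marker by marker, all 9 were called higher at P14 than at P1, and 7 of the 9 were called lower and 0 higher at P21 than at P14. The part of either cell type in the Plxnd1 values was not tested. Plxnc1, the receptor of Sema7a, dipped in the middle, at 108, 112 and 108 CPM at P1, 67.6, 71.4 and 69.7 CPM at P14 and 104 and 98.8 CPM at P21. Its log2 fold changes were -0.65 ± 0.05 (edgeR adjusted p = 1.03e-06) and 0.54 ± 0.05 (edgeR adjusted p = 7.4e-05).

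The B-type plexins, which bind class 4 semaphorins and act on RhoA, held the smallest called change among the plexins. Plxnb1, the main receptor of Sema4d, was at 310.2 to 332 CPM at P1, 338 to 355 CPM at P14 and 357 to 363 CPM at P21 and was not called at either interval. Plxnb2, a receptor of Sema4c, was at 269, 269.95 and 267 CPM at P1, 378, 362 and 348 CPM at P14 and 337 and 328 CPM at P21, with a log2 fold change of 0.43 ± 0.05 for P14 against P1 (edgeR adjusted p = 1.67e-05). Plxnb3, a receptor of Sema5a, stayed under 2 CPM in every library of development. Its call at P14 (log2 fold change 1.68 ± 0.38, edgeR adjusted p = 0.00281) therefore rests on few counts.

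The make-up of the plexin pool per length turned over with these moves. On CPM per kilobase of exon (RPKM), which allow genes to be compared, Plxna1 and Plxna3 together held 53.0% ± 0.883 of the plexin sum at P1, 15.7% ± 0.886 at P14 and 12.2% ± 1.42 at P21 (mean ± SD over 3, 3 and 2 libraries). Plxnb1 and Plxnb2 held 34.5% ± 0.541 at P1, 65.3% ± 1.33 at P14 and 66.3% ± 1.64 at P21. The larger share per length was thus with the A-type pair at P1 and with the B-type pair at P14 and P21. The plexin sum itself was 195 to 203 RPKM at P1, 123 to 129 at P14 and 118 to 125 at P21. At P1 the order by level per length was Plxna1 (57.9), Plxna3 (47.1), Plxnb2 (34.8) and Plxnb1 (33.5), (mean RPKM), with SDs of 2.12, 1.80, 0.202 and 1.15, so that the last 2 did not differ beyond their spread. At P21, by the same mean RPKM, Plxnb2 (43.1) and Plxnb1 (37.6) led and Plxna1 had 5.77. In the injured adult groups Plxnb2 led as well, with 48.3% ± 0.468 of the plexin sum in AAV2-Cre (SD, n = 2) and 44.4% ± 5.55 in AAV2-GFP (SD, n = 3), and Plxna2 was next with 18.3% ± 1.58 and 19.8% ± 5.84. Shares in adults and in development were not tested against each other, since data set, age, injury and virus cannot be told apart there.

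**Figure D2:**
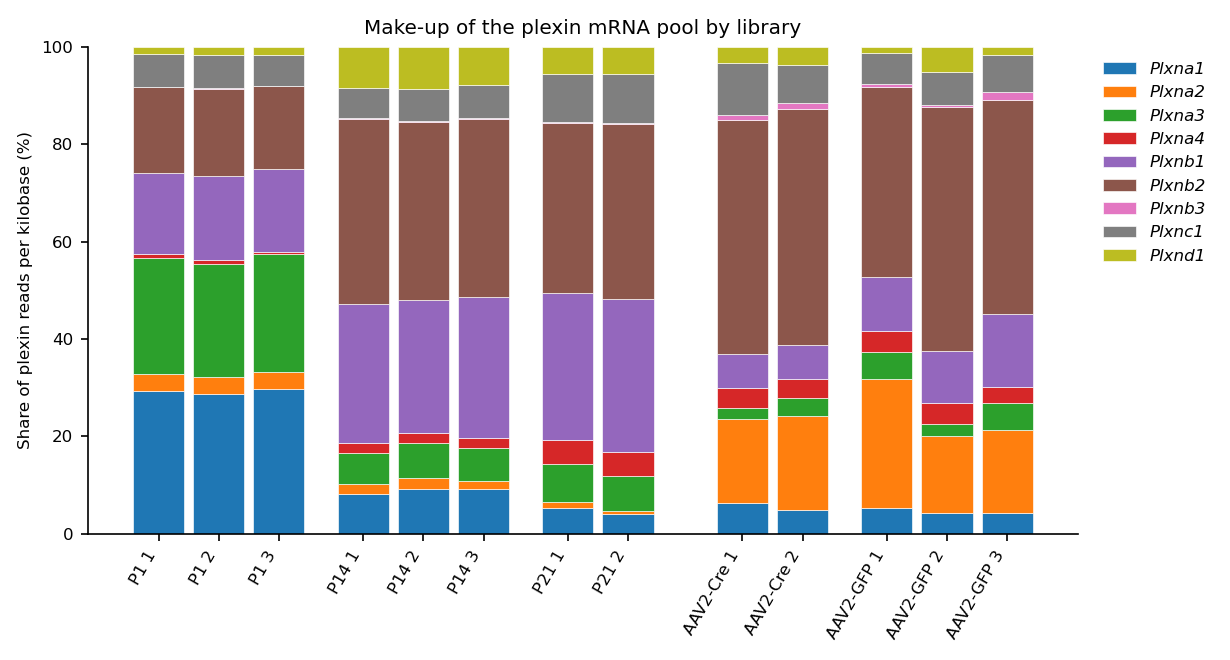
Share of each plexin (colours) in the plexin sum of RPKM (y axis, %), 1 bar per library (x axis), for P1, P14 and P21 and, after the gap, AAV2-Cre and AAV2-GFP. Plxna1 and Plxna3 together fill 53.0% of the P1 bars on average and 12.2% of the P21 bars.

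Both neuropilins, the ligand-binding partners of the A-type plexins, fell at each interval. Nrp1, which binds Sema3a and also vascular endothelial growth factor, was at 85.5, 80.2 and 85.1 CPM at P1, 55.8, 52.6 and 48.3 CPM at P14 and 34.4 and 33.3 CPM at P21. Nrp2, which binds Sema3f, was at 109.7, 106 and 115 CPM at P1, 27.1, 26.2 and 27.1 CPM at P14 and 20.9 and 13.7 CPM at P21. No 2 ages overlapped for either gene, and Nrp2 lost more than Nrp1 by P14. For P14 against P1 the log2 fold change was -0.68 ± 0.06 for Nrp1 (edgeR adjusted p = 5.96e-06) and -2.04 ± 0.12 for Nrp2 (edgeR adjusted p = 2.79e-07). For P21 against P14 it was -0.63 for both, with an SE of 0.07 for Nrp1 (edgeR adjusted p = 0.000195) and 0.14 for Nrp2 (edgeR adjusted p = 0.00788). The Nrp2 value was -0.98 without P21 replicate 1 and -0.36 without P21 replicate 2. Of the P21 libraries, replicate 2 had the lower value of Plxna1, Plxna2, Nrp2 and Sema3a, and it also had the lower share of RGC markers, 0.0377% of counts against 0.0754% in replicate 1. Whether the RGC content had a part in these values was not tested.

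**Figure D3:**
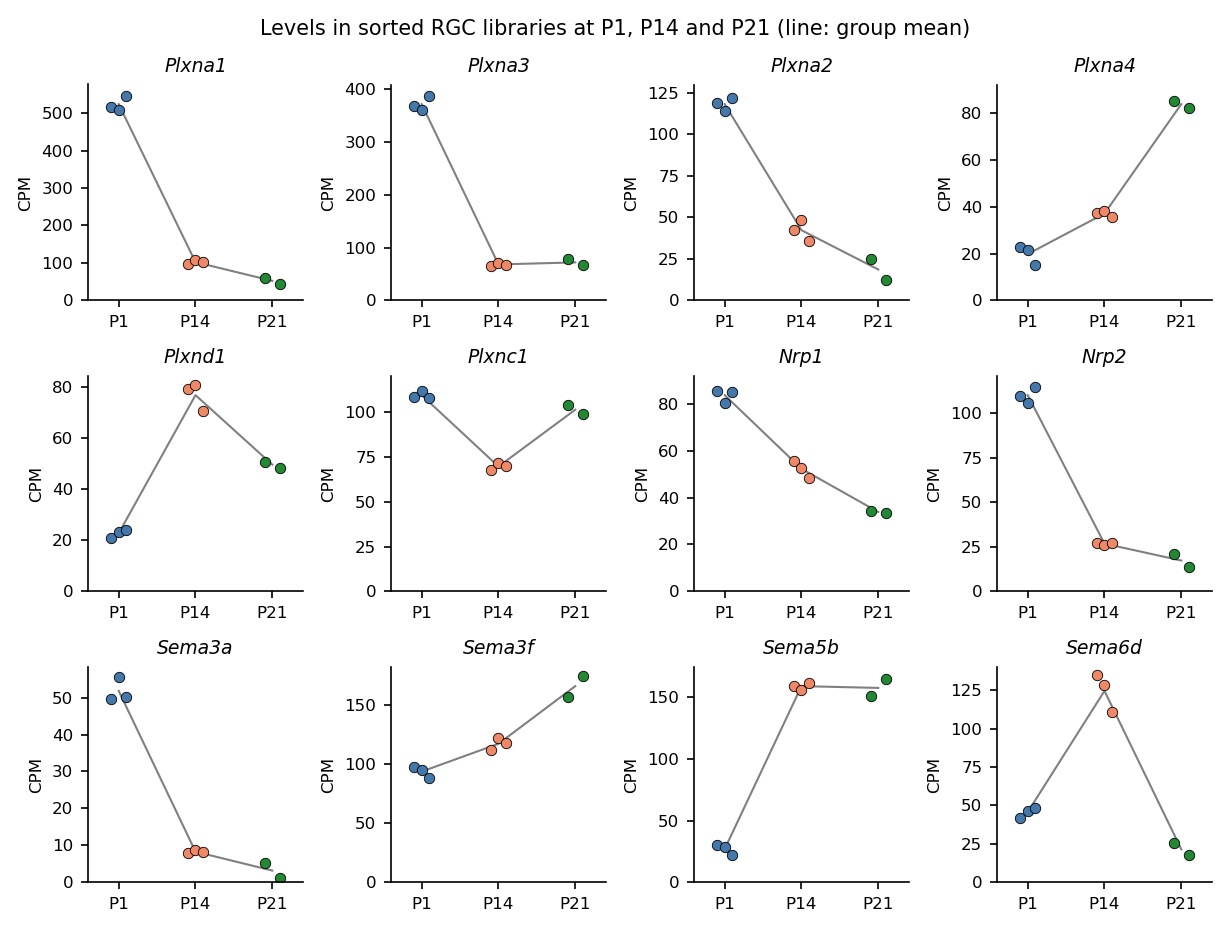
Level (y axis, CPM, linear from 0) of 12 genes in each library of P1, P14 and P21 (x axis), with a line through the group means. Plxna1 lies between 509 and 545 CPM at P1 and at 43.9 and 60.7 CPM at P21, while Plxna4 ascends and Plxnd1 and Sema6d peak at P14.

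The secreted class 3 ligands had no common course. Sema3a, the founding repellent of the family, was at 49.7, 55.7 and 50.1 CPM at P1, 7.90, 8.72 and 8.31 CPM at P14 and 5.19 and 1.21 CPM at P21. It fell at both intervals, with log2 fold changes of -2.64 ± 0.29 (edgeR adjusted p = 2.38e-05) and -1.35 ± 0.38 (edgeR adjusted p = 0.0229), and the second call was lost when any 1 of the P14 libraries was left out (edgeR adjusted p = 0.0542 to 0.0641). It was -2.78 without P21 replicate 1 and -0.68 without P21 replicate 2. Sema3f, the ligand of Nrp2, went up instead, at 97.8, 94.9 and 88.7 CPM at P1, 112, 122 and 118 CPM at P14 and 157 and 175 CPM at P21. Its steps were small and separated, with log2 fold changes of 0.32 ± 0.06 (edgeR adjusted p = 0.00101) and 0.50 ± 0.07 (edgeR adjusted p = 0.000471). Sema3b was at 11.2, 12.3 and 6.83 CPM at P1, 31.3, 28.2 and 29.6 CPM at P14 and 59.9 and 68.5 CPM at P21, with log2 fold changes of 1.56 ± 0.18 (edgeR adjusted p = 2.62e-05) and 1.11 ± 0.18 (edgeR adjusted p = 0.00126). It too rose at both intervals.

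Sema3e, the ligand that binds Plxnd1 without a neuropilin, dipped at P14, at 63.9, 72.4 and 69.7 CPM at P1, 43.0, 43.6 and 43.0 CPM at P14 and 59.3 and 55.3 CPM at P21. Its log2 fold changes were -0.67 ± 0.06 (edgeR adjusted p = 5.03e-06) and 0.41 ± 0.07 (edgeR adjusted p = 0.0014), each opposite in sign to that of its receptor over the same interval. Sema3d was low, at 1.31, 1.97 and 0.988 CPM at P1, 5.43, 5.86 and 4.46 CPM at P14 and 6.55 and 7.71 CPM at P21, and was called only for P14 against P1 (log2 fold change 1.89 ± 0.24, edgeR adjusted p = 6.74e-05). Sema3c and Sema3g, the other secreted members, were between 0.395 and 3.48 CPM in the 8 libraries of development and were not called at either interval. Per length, Sema3f was the leading class 3 ligand at all 3 ages, at 18.0, 22.6 and 32.0 RPKM, with Sema3e next at P1 (7.40) and Sema3b next at P21 (13.4).

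Of the 6 class 4 ligands, which are membrane-bound and signal through B-type plexins and immune receptors, 5 fell by P14. Sema4f was at 66.7, 57.2 and 61.6 CPM at P1 and at 12.5, 12.7 and 15.3 CPM at P14 (log2 fold change -2.19 ± 0.10, edgeR adjusted p = 3.83e-08). It stayed at that level at P21, at 12.8 and 12.03 CPM. Sema4g was at 284, 273 and 299.7 CPM at P1, 116, 129 and 129.7 CPM at P14 and 118 and 117 CPM at P21, and so also held its P14 level after a log2 fold change of -1.19 ± 0.06 (edgeR adjusted p = 8.71e-08). Sema4c, the ligand of Plxnb2, was at 92.9, 90.9 and 98.3 CPM at P1, 38.0, 38.1 and 42.6 CPM at P14 and 27.4 and 26.5 CPM at P21. It fell at both intervals, with log2 fold changes of -1.25 ± 0.06 (edgeR adjusted p = 8.81e-08) and -0.56 ± 0.07 (edgeR adjusted p = 0.000376). Sema4b was at 63.2, 57.5 and 67.2 CPM at P1, 43.3, 38.7 and 40.5 CPM at P14 and 51.8 and 53.4 CPM at P21, lower and then higher, with log2 fold changes of -0.62 ± 0.07 (edgeR adjusted p = 2.82e-05) and 0.36 ± 0.08 (edgeR adjusted p = 0.00616). Sema4a, which photoreceptors need for their survival in the mouse, was at 73.8 to 78.3 CPM at P1, 61.9 to 65.1 CPM at P14 and 68.6 to 74.2 CPM at P21, the smallest called moves of the class. Its log2 fold change for P21 against P14 was 0.18 ± 0.06 (edgeR adjusted p = 0.0427), a call lost under most alternatives (adjusted p = 0.0755 in DESeq2). The log2 fold change was 0.12 without P21 replicate 2.

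Sema4d, the ligand of Plxnb1 and an immune-cell protein known as CD100, was the class 4 member that rose. It was at 47.7, 44.0 and 38.9 CPM at P1, 95.3, 90.9 and 87.8 CPM at P14 and 127 and 134 CPM at P21. Its log2 fold changes were 1.07 ± 0.08 (edgeR adjusted p = 8.83e-07) and 0.51 ± 0.08 (edgeR adjusted p = 0.0012). The 10 microglia and macrophage markers took 0.00128% to 0.00291% of counts at P1, 0.0308% to 0.0321% at P14 and 0.00736% to 0.00888% at P21, and their part in the Sema4d values was not tested.

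The class 5 ligands, which keep the neurites of inner retinal neurons in their layer in the mouse, rose together by P14. Sema5b was at 30.1, 28.3 and 22.4 CPM at P1, 159, 156 and 161 CPM at P14 and 151 and 164 CPM at P21. This was the largest rise of any member, with a log2 fold change of 2.56 ± 0.10 (edgeR adjusted p = 2.19e-08), and it was complete by P14. Sema5a was at 70.4, 75.9 and 56.9 CPM at P1, 139, 139.5 and 127 CPM at P14 and 214 and 198 CPM at P21. It went on rising, with log2 fold changes of 1.00 ± 0.10 (edgeR adjusted p = 8.93e-06) and 0.61 ± 0.10 (edgeR adjusted p = 0.00189). All 9 Müller glia, all 8 bipolar cell and all 12 rod markers were also higher at P14 than at P1. At P21 against P14, 4 of the 9, 1 of the 8 and 1 of the 12 were higher, and 0, 3 and 9 were lower. The part of these or other cells in the rises of Sema5a and Sema5b was not tested.

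The class 6 ligands, transmembrane proteins that bind A-type plexins, went apart. Sema6a, the ligand of Plxna2 and Plxna4, was at 308, 312 and 345 CPM at P1, 94.7, 90.2 and 88.6 CPM at P14 and 83.6 and 76.8 CPM at P21. Sema6c was at 159.97, 149 and 171 CPM at P1, 23.2, 22.9 and 29.6 CPM at P14 and 24.8 and 20.9 CPM at P21. Sema6b was at 73.6, 70.4 and 69.4 CPM at P1, 32.0, 33.9 and 33.3 CPM at P14 and 31.6 and 31.3 CPM at P21. These 3 ligands fell by P14 and were not called after it, with log2 fold changes for P14 against P1 of -1.82 ± 0.06 for Sema6a (edgeR adjusted p = 1.18e-08), -2.66 ± 0.11 for Sema6c (edgeR adjusted p = 3.01e-08) and -1.11 ± 0.05 for Sema6b (edgeR adjusted p = 6.28e-08). Sema6d, a ligand of Plxna1 at the optic chiasm of the mouse, peaked at P14, at 41.9, 46.5 and 48.5 CPM at P1, 134, 128 and 111 CPM at P14 and 25.5 and 17.6 CPM at P21. Its log2 fold change was 1.45 ± 0.13 for P14 against P1 (edgeR adjusted p = 4.13e-06) and -2.53 ± 0.16 for P21 against P14 (edgeR adjusted p = 9.7e-06), the largest move of any member over the second interval. Its P21 libraries lay below those of P1 as well as those of P14.

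Sema6d and Plxnd1 were the only members called higher and then lower, the same order of calls as all 9 pericyte, 7 of 9 endothelial, all 10 microglia, 5 of 6 tested fibroblast and 9 of 12 rod markers, and the part of those cells in the Sema6d values was not tested. Sema7a, which is anchored to the membrane by a lipid, was at 72.8, 63.7 and 77.0 CPM at P1, 34.6, 36.7 and 31.1 CPM at P14 and 29.3 and 23.4 CPM at P21. It was lower at both intervals, with log2 fold changes of -1.06 ± 0.10 (edgeR adjusted p = 8.77e-06) and -0.37 ± 0.12 (edgeR adjusted p = 0.0381). The second was -0.22 without P21 replicate 2 and -0.55 without P21 replicate 1. Those fits left 1 P21 library and do not decide its call. The call was lost without P1 replicate 1, P14 replicate 1 or P14 replicate 2 (edgeR adjusted p = 0.0563 to 0.111). The fit of all 13 libraries lost it too (edgeR adjusted p = 0.347). Over both intervals, 5 members were called higher at each step, 7 lower at each step, 4 lower and then higher, and 10 were called at the first step alone.

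Ligands and receptors known to bind each other did not all share a course. Of the class 3 pairs, Sema3a fell with Nrp1 and Plxna1 but against Plxna4, while Sema3f rose as Nrp2 and Plxna3 fell. Among the class 6 pairs, Sema6a fell with Plxna2 but against Plxna4. The sum of the 20 semaphorins per length was 235 to 249 RPKM at P1, 166 to 167 at P14 and 177 to 180.4 at P21, and that of the neuropilins was 17.1 to 18.4, 7.22 to 7.99 and 4.56 to 5.28. Of the 3 sums, that of the neuropilins alone was lower at each interval without overlap.

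After Kdm6a deletion and crush, few members differed between AAV2-Cre and AAV2-GFP. None was higher and 1 was lower, by edgeR's quasi-likelihood test with Benjamini-Hochberg adjustment, against 1.33% higher and 0.294% lower of the 18395 genes tested (1.13% and 0.217% with a log2 fold change beyond 1 as well). DESeq2 called 1 member higher and 2 lower, against 798 higher and 528 lower over all genes. At an unadjusted p under 0.05 there were 4 members (12.9%), Sema3d, Sema4d, Plxnb1 and Sema3b, against 16.5% of all genes tested. Over the 31 members the log2 fold change was above 0 for 15 and below 0 for 16, with a median of -0.02 against -0.03 over all genes. In 7 members (22.6%) the AAV2-Cre and AAV2-GFP libraries did not overlap, against 35.5% of all genes tested.

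Sema3d, a secreted ligand, was the called member. It was at 0.293 and 0.386 CPM in AAV2-Cre, against 4.57, 3.40 and 3.87 CPM in AAV2-GFP, which was 4 and 6 counts against 63, 53 and 62 counts. The groups did not overlap, at low counts in AAV2-Cre. The log2 fold change was -3.50 ± 0.67 (edgeR adjusted p = 0.0438). The call was lost when any 1 of the 3 AAV2-GFP libraries was left out (edgeR adjusted p = 0.0727 to 0.1) and in limma-voom (adjusted p = 0.149). The log2 fold change was -3.57 to -3.39 over the alternatives that tested it and kept both AAV2-Cre libraries. Leaving out an AAV2-Cre library left 1 library in that group, assumed to vary like AAV2-GFP, so those fits do not decide the call. The log2 fold change was then -3.29 without AAV2-Cre replicate 1 and -3.70 without replicate 2.

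Sema4d, the immune ligand, had the highest level per length of any member in both adult groups (60.8 RPKM in AAV2-Cre and 37.7 RPKM in AAV2-GFP) and was at 513 and 421 CPM in AAV2-Cre, against 238, 314 and 317 CPM in AAV2-GFP. Its receptor Plxnb1 was at 12.02 and 12.6 CPM in AAV2-Cre, against 19.4, 25.8 and 30.2 CPM in AAV2-GFP. Neither gene overlapped between the groups, and the ligand lay on the higher and the receptor on the lower side in AAV2-Cre. Neither passed the adjusted threshold: the log2 fold change was 0.69 ± 0.18 for Sema4d (edgeR adjusted p = 0.0953) and -1.03 ± 0.27 for Plxnb1 (edgeR adjusted p = 0.0997). DESeq2 called both (adjusted p = 0.00758 and 0.0132). Sema3b was at 7.11 and 16.7 CPM in AAV2-Cre and 4.42, 5.52 and 7.55 CPM in AAV2-GFP, groups that overlapped, with a log2 fold change of 1.03 ± 0.43 (edgeR adjusted p = 0.278), which was 0.29 without AAV2-Cre replicate 2 and 1.55 without replicate 1.

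Markers of immune cells, which express Sema4d, differed between the same libraries. The 7 B cell markers took 0.0521% to 0.112% of counts in AAV2-Cre and 0.0185% to 0.0449% in AAV2-GFP, with 2 called higher. The 8 T and NK cell markers took 0.0348% to 0.0517% in AAV2-Cre and 0.0163% to 0.0283% in AAV2-GFP, with none called and 7 of 8 at an unadjusted p under 0.05. The 10 microglia and macrophage markers took 0.775% to 0.979% in AAV2-Cre and 0.579% to 0.904% in AAV2-GFP, ranges that overlapped. The part of these cells in the Sema4d values was not tested.

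The remaining 27 members had an edgeR adjusted p of at least 0.344 in this comparison. Among receptors, Nrp1 was at 117 and 109 CPM in AAV2-Cre, against 76.4, 85.2 and 102 CPM in AAV2-GFP, without overlap, and Nrp2 was at 60.5 and 35.4 CPM in AAV2-Cre, against 47.3 to 50.1 CPM in AAV2-GFP. Plxna1 was at 10.1 and 8.29 CPM in AAV2-Cre and 8.24 to 9.88 CPM in AAV2-GFP, and Plxna3 at 3.15 and 5.46 CPM in AAV2-Cre and 4.56 to 8.99 CPM in AAV2-GFP. Neither of the plexins that led at P1 stood apart between the groups. Per length, Sema4d and Sema4a together held 75.3% ± 2.36 of the semaphorin sum in AAV2-Cre (SD, n = 2) and 67.1% ± 3.04 in AAV2-GFP (SD, n = 3). The whole semaphorin sum was 117 to 129 RPKM in AAV2-Cre and 71.0 to 103 in AAV2-GFP, the plexin sum 17.7 to 19.0 and 18.1 to 24.9, and the neuropilin sum 14.1 to 17.1 and 11.8 to 14.7. The adult semaphorin pool was thus mostly of 2 ligands in every library, and only the semaphorin sum was without overlap between the groups.

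**Figure D4:**
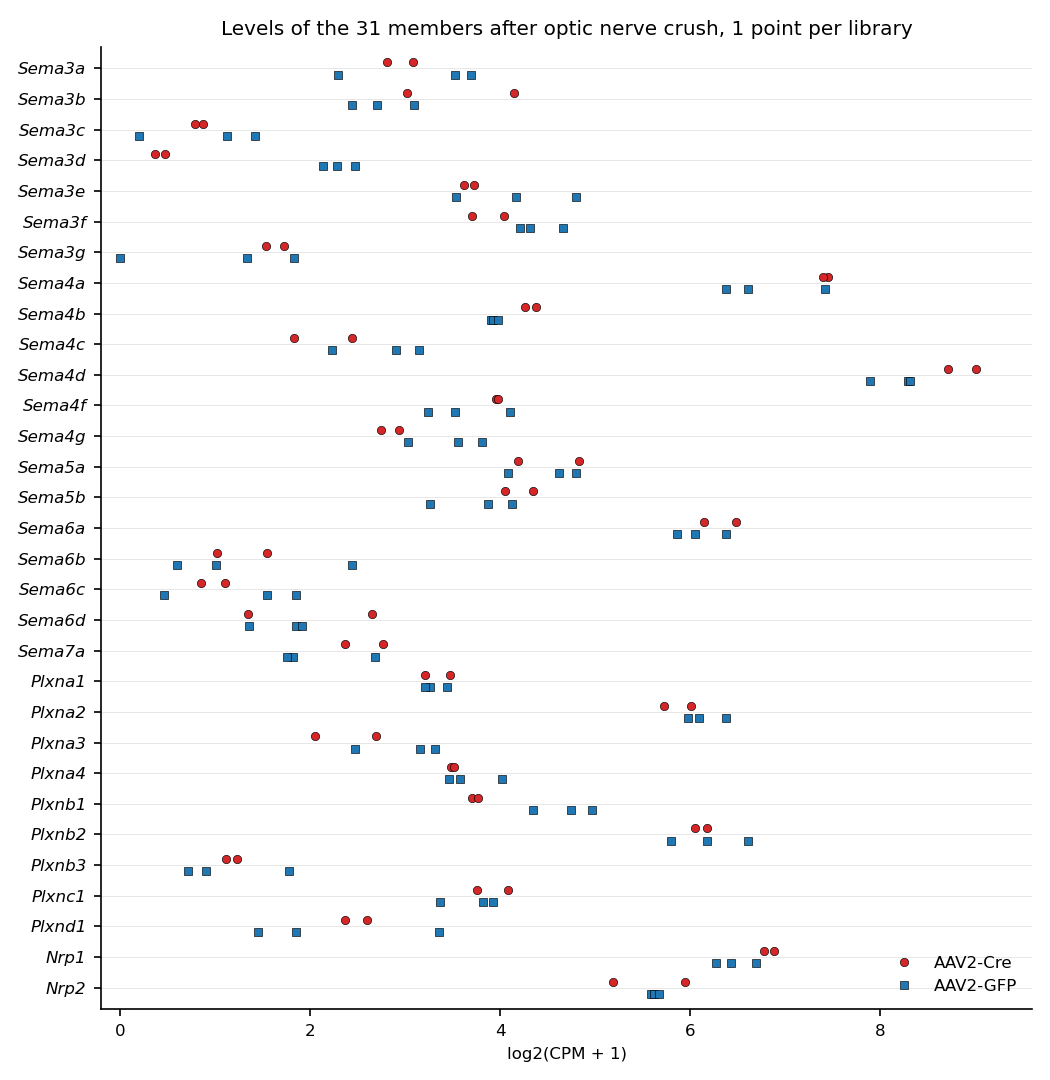
Level of the 31 genes (rows) as log2(CPM + 1) (x axis) in each AAV2-Cre library (red circles, upper line of a row) and each AAV2-GFP library (blue squares, lower line of a row). Values are not corrected for gene length and are to be read within a row. Sema3d is the gene called between the groups, at 0.293 and 0.386 CPM in AAV2-Cre and 3.40 to 4.57 CPM in AAV2-GFP.

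Beyond the 31 genes, 41 genes of the pathway (12 co-receptors and other semaphorin receptors and 29 intracellular signalling genes) were read. At P14 against P1, 11 of the 40 tested were higher (27.5%) and 24 lower (60%), against 33.6% higher and 33.6% lower of all genes. The falls were mainly among the intracellular genes (19 of 29). Crmp1, a collapsin response mediator protein through which Sema3a acts on microtubules, was at 2113 to 2334 CPM at P1, 204 to 248 CPM at P14 and 159 to 222 CPM at P21 (log2 fold change for P14 against P1 -3.33 ± 0.13, edgeR adjusted p = 1.92e-08). Pak1, a kinase that acts on actin downstream of Rac, had a log2 fold change of -2.32 ± 0.08 (edgeR adjusted p = 1.22e-08), Chl1, an adhesion molecule that joins neuropilins, -2.06 ± 0.07 (edgeR adjusted p = 1.47e-08), and Dpysl2, the gene of CRMP2, -1.50 ± 0.05 (edgeR adjusted p = 9.33e-09). The genes with the smallest p among those that rose were mostly receptors: Erbb2 (2.77 ± 0.15, edgeR adjusted p = 1.69e-07) and Kdr (2.63 ± 0.16, edgeR adjusted p = 3.74e-07), tyrosine kinases that pair with plexins or neuropilins, Itgb1 (1.06 ± 0.07, edgeR adjusted p = 5.87e-07), the integrin chain that binds Sema7a, and the GTPase Rhoa (0.63 ± 0.05, edgeR adjusted p = 1e-06). The largest rises, at low levels, were those of Tyrobp (3.72 ± 0.38, edgeR adjusted p = 1.4e-05) and Trem2 (3.62 ± 0.40, edgeR adjusted p = 2.49e-05). All 10 microglia and macrophage markers were also higher, and 13 of the 14 RGC markers lower, at P14 than at P1. The part of cell content in the pathway values was not tested.

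Between P14 and P21, 5 of the 40 pathway genes were higher (12.5%) and 16 lower (40%), against 14.6% higher and 19.3% lower of all genes. Itgb1 turned back, at 149 to 152 CPM at P1, 299.5 to 325 CPM at P14 and 146 to 177 CPM at P21, with a log2 fold change of -0.96 ± 0.08 (edgeR adjusted p = 3.45e-05). Fes, a kinase in Sema3a signalling, had -1.97 ± 0.19 (edgeR adjusted p = 7.27e-05), Chl1 -0.81 ± 0.08 (edgeR adjusted p = 0.000114) and Cfl1, the actin-severing cofilin, -0.51 ± 0.05 (edgeR adjusted p = 0.000131). Trem2 (-2.37 ± 0.42, edgeR adjusted p = 0.00235) and Tyrobp (-2.35 ± 0.40, edgeR adjusted p = 0.00171) fell most. All 10 microglia and macrophage, all 9 pericyte and smooth muscle and 8 of 14 RGC markers were also lower, and the part of these cells was not tested. Met, a tyrosine kinase that pairs with B-type plexins, rose most among those named (1.47 ± 0.21, edgeR adjusted p = 0.00058), ahead of Farp2 (0.47 ± 0.12, edgeR adjusted p = 0.0154), Nrcam (0.31 ± 0.05, edgeR adjusted p = 0.00145) and Mras (0.28 ± 0.05, edgeR adjusted p = 0.00358). The Farp2 call was lost with a replicate block (edgeR adjusted p = 0.0627) and without P14 replicate 3 (edgeR adjusted p = 0.0593). The fit of all 13 libraries lost the calls of Farp2, Nrcam, Mras and Chl1 (edgeR adjusted p = 0.0813, 0.0915, 0.469 and 0.0854).

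In AAV2-Cre against AAV2-GFP, none of the 41 pathway genes was called by edgeR, and 8 had an unadjusted p under 0.05 (19.5%, against 16.5% of all genes tested). DESeq2 called 5 pathway genes higher and 0 lower, against 798 higher and 528 lower over all genes. The smallest adjusted p values were those of Itgb1 and Cd72. Itgb1 was at 310.1 and 312 CPM in AAV2-Cre and 209.5, 212 and 164 CPM in AAV2-GFP (log2 fold change 0.67 ± 0.16, edgeR adjusted p = 0.0773). Cd72, a receptor of Sema4d known from B cells, was at 392 and 493 CPM in AAV2-Cre and 228, 311 and 236 CPM in AAV2-GFP (0.78 ± 0.18, edgeR adjusted p = 0.0781). Both genes were without overlap between the groups, and Cd72 stood on the same side as its ligand Sema4d in AAV2-Cre. The part of B cells, microglia or macrophages in the Cd72 values was not tested.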

How the data were processed

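RGC libraries (13) were sequenced in bulk from a poly(A) kit that does not mark strand. Per the labels and the study's methods, reads passed FastQC 0.11.9 and Trimmomatic 0.39 before HISAT2 2.2.1 placed them on GRCm38, and the authors deposited raw counts per gene from featureCounts (Subread 2.0.3). The annotation release used is not given in the sources used here. Since strand is not marked, reads of Sema4c, Plxna1, Plxna4 and Plxnb1 cannot be told apart from those of an overlapping antisense gene, whose own totals were 842, 562, 2 and 1258 counts over the 13 libraries.

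Gene names and exon lengths came from GENCODE vM21 (52403 of 52550 IDs matched). Adult and developmental libraries were fitted apart in edgeR 4.0.16 (R 4.3.3): filterByExpr, TMM scaling, quasi-likelihood test, Benjamini-Hochberg adjustment over all genes tested (18395 and 20890), call at an adjusted p under 0.05. SE is the log2 fold change divided by the root of F. CPM used the same TMM factors, and reads per kilobase divide CPM by the union exon length. The fit was tested on simulated data. Libraries of a group differed by more than sampling noise.

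The members and lists were chosen with earlier results of these data known. Named genes were up to 8 called members a direction in order of p (the 4 with the smallest p where fewer than 4 were called), and up to 4 called pathway genes a direction (2 where none was called). Members outside the rule are given so that all 31 are accounted for, and Trem2 and Tyrobp for the size of their changes. Alternatives were DESeq2 1.42.0, limma-voom (limma 3.58.1), RLE factors, no scaling, no filter, at least 10 counts in every library, a replicate block, a log2 fold limit of 1, all 13 libraries in 1 fit, and each library left out.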

Additional observations from a re-analysis of the deposited data

How the results depend on the processing

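For P14 against P1, 447 values of called members kept direction and call over the alternatives and 1 did not: Sema4a in the fit of all 13 libraries (log2 fold change -0.24, edgeR adjusted p = 0.351). Without scaling, the median of all genes for P14 against P1 moved to 0.11 from -0.01, and 13 members were called higher and 17 lower. With a log2 fold change beyond 1 as well, 7 members were higher and 12 pathway genes lower at P14 than at P1, and at P21 against P14 there were 2 members higher, 3 lower, 1 pathway gene higher and 5 lower. For P21 against P14, 258 values of called members were unchanged in call and 30 missed the threshold with the direction kept, mostly of Sema3a, Sema4a and Sema7a. The fit of all 13 libraries, which takes in the wider spread of the adult libraries, called 4 members higher and 4 lower and 1 pathway gene higher and 10 lower there, and leaving out 1 library gave 3 to 6 pathway genes higher.

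For AAV2-Cre against AAV2-GFP the calls depended on the tool, and the cause was not tested. DESeq2 called 1 member higher (Sema4d) and 2 lower (Sema3d, Plxnb1) with 5 pathway genes higher, limma-voom 0 lower with 1 pathway gene higher, no count filter 2 higher (Sema4a, Sema4d) and 2 lower with 5 pathway genes higher, at least 10 counts in every library 0 lower (Sema3d was then not tested), and the fit of all 13 libraries 3 higher and 3 lower with 6 pathway genes higher. Leaving out 1 AAV2-GFP library gave 0 to 1 members higher (Sema4a without AAV2-GFP replicate 3, edgeR adjusted p = 0.0405) and 0 lower. In the fits without an AAV2-Cre library, the lone library was assumed to vary like AAV2-GFP, so their calls do not decide about any member. Over all genes, edgeR called 244 higher and 54 lower, DESeq2 798 and 528, no filter 969 and 543 and the fit of all 13 libraries 1433 and 1071. The log2 fold changes of the called or named genes kept their direction in every alternative run, while the median of all genes in this comparison (-0.03) was at or just above 0 in limma-voom, without AAV2-GFP replicate 2 and in the fit of all 13 libraries.

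Same-numbered libraries did not deviate together (r of -0.06 to 0.03 over 7 pairs). In a group of 2 libraries the deviations from the group mean mirror each other, so these values cannot decide whether the numbers pair the samples. With a replicate block, 0 members were called lower in AAV2-Cre, Sema3d had an edgeR adjusted p of 0.0982, and 3 pathway genes were higher at P21 than at P14. The block moved the second-interval calls of Sema3a, Sema4a and Sema7a to adjusted p = 0.0557, 0.0787 and 0.0691 (edgeR).

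Depth limits the low members: Sema3c, Sema3g, Sema3d and Plxnb3 were under 10 CPM in every library.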
